A study of Homo sapiens with 16 samples.

Results

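The genes described here encode the subunits of the Mediator complex. They were taken by name from the count table of spheroids of 3 prostate cancer cell lines, as every gene named MED with a number, with or without a final L, together with CDK8, CDK19 and CCNC. This gave 33 genes of the 62703 in the table. Of these, 29 had enough counts to be tested, within 10566 tested genes, and MED12L, MED17, MED18 and MED31 were too low to test. LNCaP is an androgen-dependent, enzalutamide-sensitive line, 22Rv1 responds to androgen but resists the drug, and PC3 responds to neither. Cells of each line received 25 pmol of a small interfering RNA pool, directed at MED12 (siMED12) or non-targeting (siCtrl), then grew for 3 days in 2D and 4 days as spheroids, so every group, controls included, had been transfected. There were 3 siCtrl libraries per line, 3 siMED12 libraries in LNCaP and 2 in each of 22Rv1 and PC3, where replicate 2 was not analysed here. The silencing was transient, each line is a single established line, and the labels do not say whether replicates were separate cultures, so p-values measure the spread between these libraries, which may be technical.

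Mediator bridges transcription factors bound at enhancers and RNA polymerase II at the promoter. Its head and middle modules contact the polymerase, the tail module receives many of the activators, and MED14 runs along the complex as a scaffold. A separate kinase module docks reversibly on the middle. It consists of a cyclin-dependent kinase (CDK8 or its paralog CDK19), cyclin C (CCNC), MED12 or MED12L, which activates the kinase, and MED13 or MED13L, which links the module to the rest of the complex. MED12 and the Mediator kinases have been studied in prostate cancer as regulators of androgen-driven and MYC-driven transcription. In what follows the kinase module has 7 genes, the head 8, the middle 8, the scaffold 1 and the tail 5. MED27, MED28, MED29 and MED30, which different authors place in the head or in the tail, are kept apart as 4 head-tail boundary genes.

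Libraries held 479118 to 993807 counts with a median of 764494, and the Mediator genes together took 0.0891% to 0.125% of them. A count of 0 allows up to 3 counts, equal to 3.15 to 6.22 CPM (the count scaled to a common library total) depending on the library, and covers counting error only. The sequencing read only 3′ ends, so a CPM value has no transcript length in it. Levels of different genes are set side by side as a rough guide only. How shared reads were counted and whether strand was used are not given, and both can differ in effect between genes. The line labels were checked against marker genes. The summed level of 4 luminal genes (KLK3, KLK2, TMPRSS2 and SLC45A3) was 4360 to 5240 CPM in LNCaP siCtrl, 151 to 183 CPM in 22Rv1 siCtrl and 51.5 to 69.4 CPM in PC3 siCtrl. The sum of 5 genes typical of PC3 (VIM, CAV1, CAV2, AXL and CD44) was 1580 to 1710 CPM in PC3 siCtrl and at most 146 CPM in the siCtrl libraries of the other lines. With siMED12 the luminal sum was 2680 to 3520 CPM in LNCaP, 99.7 to 108 CPM in 22Rv1 and 46.2 to 147 CPM in PC3. The PC3 siMED12 libraries lay on both sides of 22Rv1, with 46.2 CPM in replicate 1 and 147 CPM in replicate 3. The luminal sum thus did not separate all siMED12 libraries of these lines. Replicate 3 is also the PC3 library with raised LNCaP genes described below, and a link was not tested. The PC3 gene sum was 1450 to 1560 CPM in PC3 siMED12 and at most 181 CPM in siMED12 of the other lines. Of markers of other cell types, 3 leukocyte genes summed to at most 1.4 CPM in any library and the endothelial pair PECAM1 and CDH5 to at most 9.03 CPM, reached in PC3 siCtrl, with CDH5 at 0 in all groups. The 4 fibroblast genes (COL1A1, COL1A2, DCN and LUM) summed to 59.9 to 98 CPM in PC3 siCtrl, 60.1 to 72.5 CPM in PC3 siMED12 and 0 to 28.6 CPM in the other groups, with COL1A2 and DCN at 0 in all groups, and their part in the line differences was not tested. In 2 libraries genes of another line were raised: in 22Rv1 siMED12 replicate 3, 18 genes restricted to PC3 stood at 4.08% of their PC3 level, and in PC3 siMED12 replicate 3, 2 genes restricted to LNCaP stood at 2.95% of their LNCaP level. In the other libraries of the receiving lines these values were 0.273% to 1.08% and 0.376% to 0.911%. Restricted genes averaged at least 100 CPM in siCtrl of their line and at most 1% of that in siCtrl of each other line. Their siCtrl values in other lines are thus low by choice. The 3 genes restricted to 22Rv1 stood at 1.68% of their 22Rv1 level in LNCaP siMED12 replicate 3, beside 0.178% to 0.953% in the other LNCaP libraries, and at 1.35% in PC3 siCtrl replicate 3, beside 0% to 0.552% in the other PC3 libraries.

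The transcripts of the complex differed widely in abundance between subunits and, by module, between lines. In siCtrl spheroids all 33 genes summed to 950 ± 11.6 CPM in LNCaP, 984 ± 34.7 CPM in 22Rv1 and 1120 ± 56.3 CPM in PC3 (SD, n = 3 each, as for all siCtrl values). The PC3 libraries, from 1060 to 1170 CPM, lay above those of both other lines. The tail sum was 195 ± 4.41 CPM in LNCaP, 146 ± 14 CPM in 22Rv1 and 268 ± 8.68 CPM in PC3, and the libraries of the 3 lines did not overlap. The kinase module sum was close in LNCaP and 22Rv1, at 244 ± 10.9 and 248 ± 17 CPM, and was 211 ± 7.91 CPM in PC3. The middle sum was 146 ± 3.36, 142 ± 4.28 and 208 ± 20 CPM in the same order, and the head sum was 149 ± 3.18, 194 ± 3.07 and 208 ± 14.5 CPM. These sums are descriptions and were given no test. In bulk spheroids a lower level in all cells and fewer cells that express a gene cannot be told apart. CCNC was abundant in all 3 lines, with 96.9 ± 12.4 CPM in LNCaP, 108 ± 12.2 CPM in 22Rv1 and 134 ± 19.9 CPM in PC3. MED12, the silenced gene, was well below CCNC in each line, with 11.5 ± 1.48 CPM in LNCaP, 19.8 ± 3.39 CPM in 22Rv1 and 18.5 ± 9.99 CPM in PC3.

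**Figure D1:**
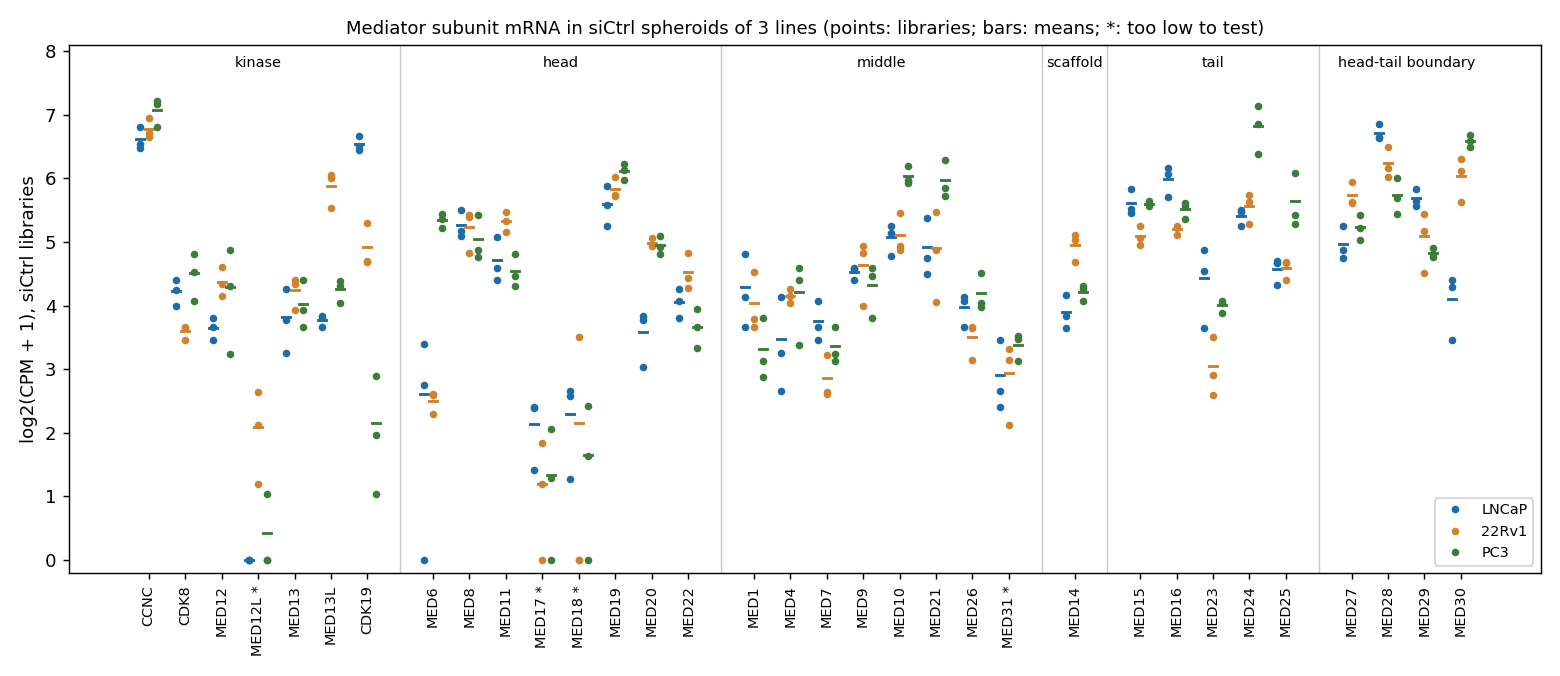
Level of each of the 33 Mediator genes in the siCtrl libraries, as log2(CPM + 1), grouped by module. Each point is a library, coloured by line, each bar a group mean, and an asterisk marks a gene too low to test. CDK19 falls from 92.2 CPM in LNCaP to 3.46 CPM in PC3, whereas MED6 and MED24 stand highest in PC3.

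The lines were compared in siCtrl spheroids to ask which subunits set them apart. Between 22Rv1 and LNCaP 9 of the 29 tested members passed the edgeR test at an adjusted p of 0.05, against 43.2% of all tested genes. Between PC3 and LNCaP 14 of 29 passed, against 54.7% of all genes, and between PC3 and 22Rv1 13 of 29 passed, against 54.9% (7 of 29 with DESeq2). Thus no comparison called a larger share of Mediator genes than of genes at large. Members went both ways. In 22Rv1 against LNCaP 5 were higher and 4 lower, where 22% of all genes were called higher and 21.2% lower. In PC3 against LNCaP 9 were higher and 5 lower (29.2% and 25.5% of all genes), and in PC3 against 22Rv1 7 were higher and 6 lower (28.7% and 26.1%). The median log2 ratio of the members was 0.06, 0.25 and 0.02 in these comparisons, beside 0, 0.04 and 0.01 for all genes. These medians moved with single libraries. The first became 0.149 without LNCaP siCtrl replicate 2 and 0.147 without 22Rv1 replicate 1. The second became 0.332 without PC3 replicate 2 and 0.126 without PC3 replicate 3. The third became 0.225 without PC3 replicate 2, -0.104 without PC3 replicate 3 and -0.094 without 22Rv1 replicate 3, so no direction is read from it. The libraries of the compared lines did not overlap for 16, 13 and 18 members, against 51.2%, 60.2% and 58.9% of all genes. The line comparisons share libraries and are not independent of each other. The siMED12 libraries did not enter these group means, and in them the same order was kept without overlap by 8 of the 9 called members in 22Rv1 against LNCaP, 12 of the 14 in PC3 against LNCaP and 11 of the 13 in PC3 against 22Rv1. Of all genes called, 82.4%, 86.2% and 87.3% did so.

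**Figure D2:**
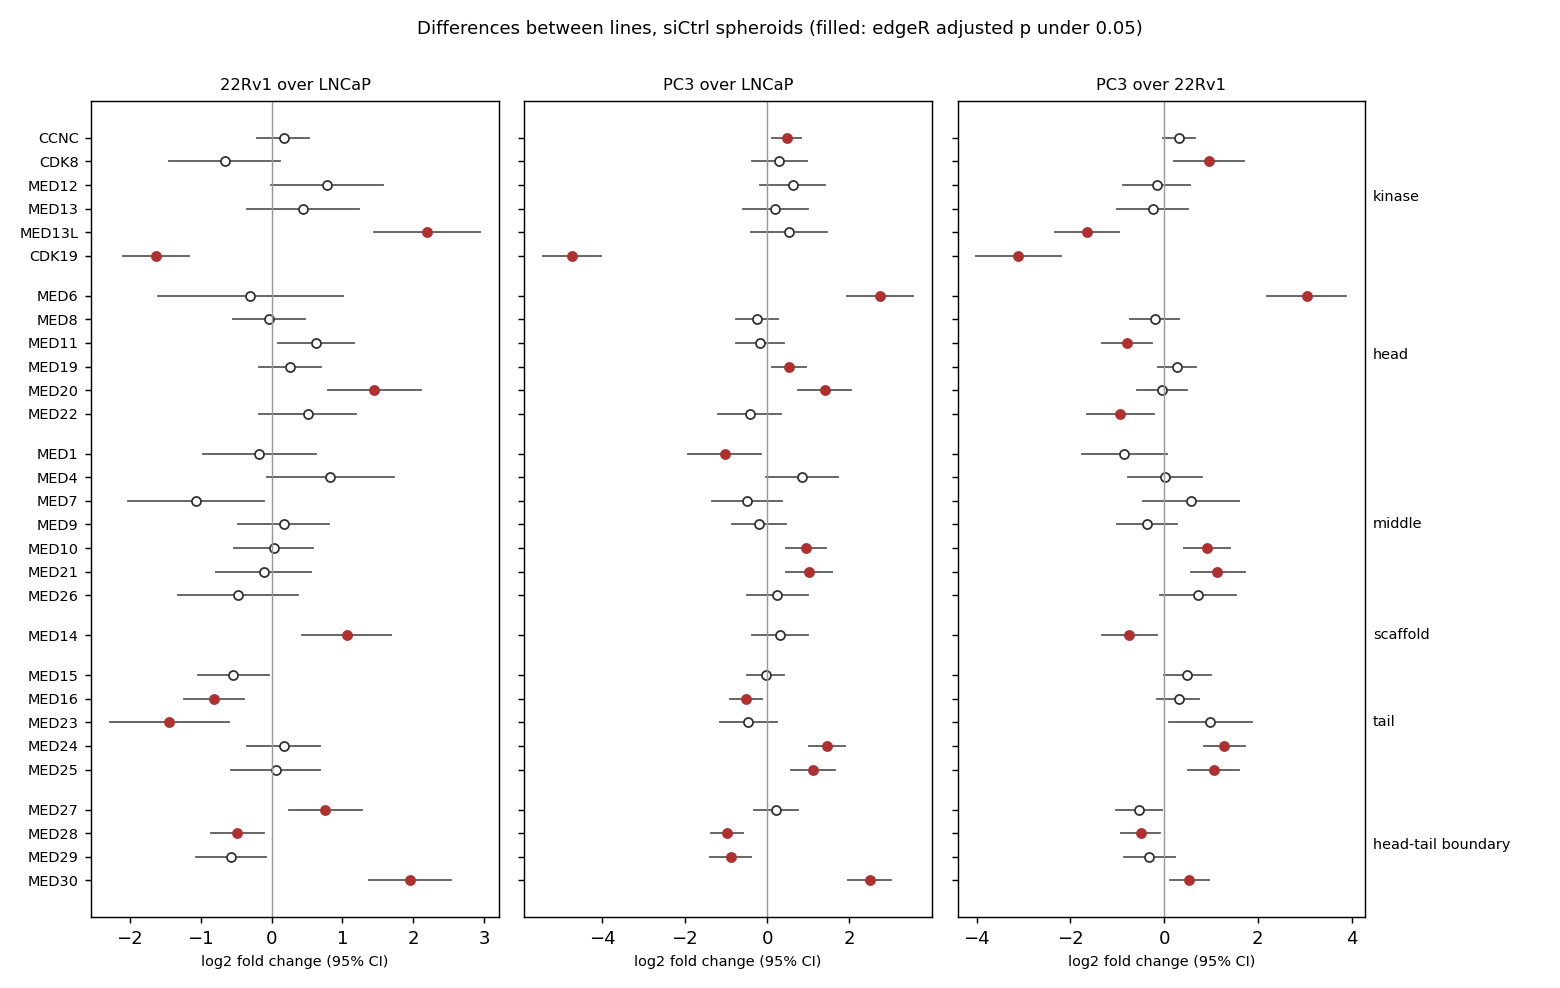
Difference between lines in siCtrl spheroids for the 29 tested Mediator genes, as log2 ratio with its 95% confidence interval, grouped by module. Filled points passed an edgeR adjusted p of 0.05. The interval of CDK19 lies far below 0 in both panels with PC3, from -5.44 to -4.02 against LNCaP, and those of MED6 and MED24 lie above it.

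The kinase pair showed the largest contrast of any subunit. CDK19 was at 86.2, 100 and 90.1 CPM in the LNCaP siCtrl libraries, at 24.7, 25.1 and 38.5 CPM in 22Rv1 and at 6.45, 1.05 and 2.89 CPM in PC3, which are 5, 1 and 2 counts. The 3 lines did not overlap. The level was 26.6-fold lower in PC3 than in LNCaP (log2 ratio of fitted means -4.73, SE 0.35, edgeR adjusted p = 3.77e-13) and 3.09-fold lower in 22Rv1 than in LNCaP (-1.63, SE 0.23, adjusted p = 8.05e-07). PC3 was also 8.6-fold below 22Rv1 (-3.11, SE 0.44, adjusted p = 5.01e-07). The size of these ratios turned on PC3 replicate 1, without which they were 46.3-fold and 15.3-fold, and limma on the log2 CPM gave 16.6-fold and 5.52-fold. CDK8 did not follow this order. It was at 17.7 ± 2.59 CPM in LNCaP, 11.1 ± 0.928 CPM in 22Rv1 and 21.7 ± 5.61 CPM in PC3, and the 95% interval of the log2 difference between PC3 and LNCaP ran from -0.37 to 0.96. Against 22Rv1 it was higher in PC3 without overlap (0.96, SE 0.36, adjusted p = 0.0258), a call lost with DESeq2 (adjusted p = 0.0933) and without any 1 of the 3 22Rv1 replicates or PC3 replicate 1 or 2 (adjusted p of 0.054 to 0.12), and the siMED12 libraries of these lines overlapped. CDK19 therefore made up 83.9% ± 1.1 of the counts of both kinases in LNCaP, 72.1% ± 4.54 in 22Rv1 and 13% ± 7.6 in PC3. For single PC3 libraries the exact binomial 95% intervals of this share reached up to 45.4%, since they rest on 13 to 26 counts. How reads shared by these similar genes were counted is not given in the sources used here. At the percentages of the 2 LNCaP-restricted genes, 0.422 to 0.608 CPM of CDK19 would be present in the PC3 siCtrl libraries. These genes were chosen to average at most 1% of their LNCaP level there, so these percentages cannot measure carry-over into those libraries. The part of carry-over in the PC3 values of CDK19 was not tested.

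The siMED12 libraries held the same order of CDK19. It was at 99.3, 109 and 87.4 CPM in LNCaP, 26.5 and 14.1 CPM in 22Rv1 and 7.91 and 6.22 CPM in PC3. The last value is that of replicate 3, where carry-over at 2.95% would give 2.72 CPM. The share of CDK19 in the counts of both kinases was 83.5% ± 5.11 (n = 3) in LNCaP, 61% ± 24.1 (n = 2) in 22Rv1 and 29.2% ± 8.63 (n = 2) in PC3.

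**Figure D3:**
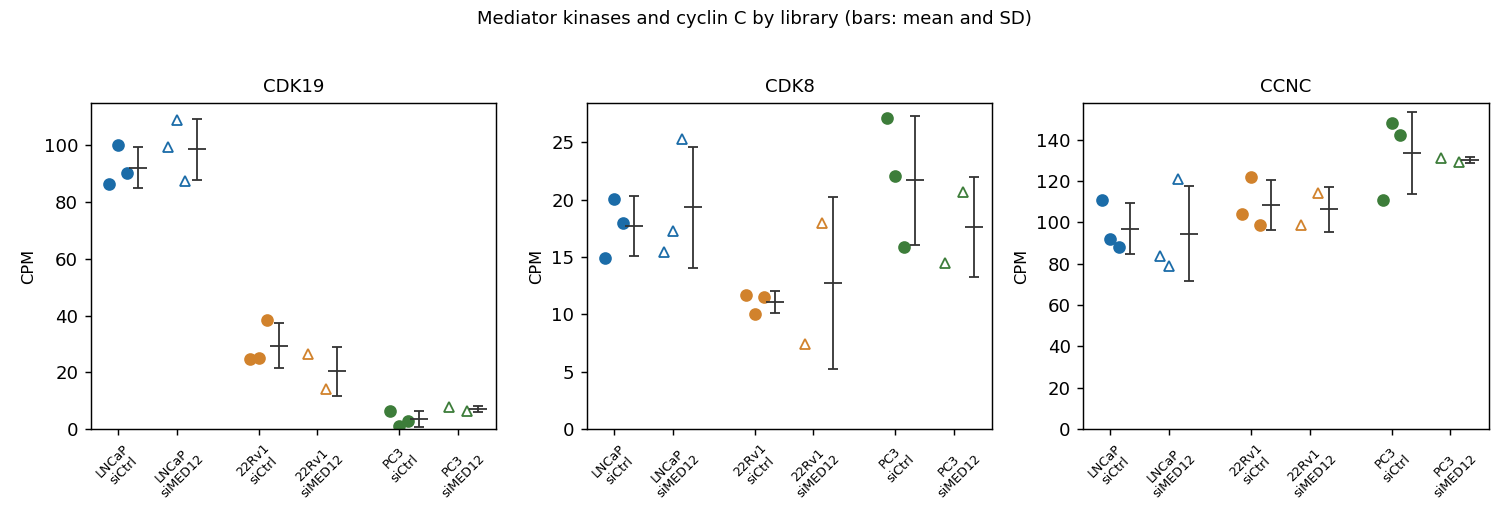
CPM of CDK19, CDK8 and CCNC in each library, by line and treatment, with filled circles for siCtrl, open triangles for siMED12 and bars for mean and SD (n = 3, or n = 2 for siMED12 in 22Rv1 and PC3). CDK19 steps down from LNCaP to 22Rv1 to PC3 in both treatments, and CDK8 stays between 7.42 and 27.1 CPM in all libraries.

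The start regions of these genes are shown because their relative levels differed most between the lines. CDK19 lies on chromosome 6 from 110609978 to 110815958, minus strand, and CDK8 on chromosome 13 from 26254104 to 26420982, plus strand (GRCh38, Gencode release 44). The sequences below are RefSeq windows on GRCh38.p14 from 250 bases before to 50 bases after a start, chr6:110815806-110816105 on the minus strand for CDK19, the outermost of its 3 listed starts, and chr13:26253879-26254178 on the plus strand for CDK8. Capitals mark the GC box letters GGGCGG on either strand.
CDK19: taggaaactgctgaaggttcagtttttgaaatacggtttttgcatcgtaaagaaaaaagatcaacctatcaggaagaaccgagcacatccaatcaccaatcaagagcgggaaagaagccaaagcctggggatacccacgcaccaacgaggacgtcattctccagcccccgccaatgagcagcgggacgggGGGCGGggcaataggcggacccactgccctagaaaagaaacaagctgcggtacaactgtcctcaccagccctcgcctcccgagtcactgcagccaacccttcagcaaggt
CDK8: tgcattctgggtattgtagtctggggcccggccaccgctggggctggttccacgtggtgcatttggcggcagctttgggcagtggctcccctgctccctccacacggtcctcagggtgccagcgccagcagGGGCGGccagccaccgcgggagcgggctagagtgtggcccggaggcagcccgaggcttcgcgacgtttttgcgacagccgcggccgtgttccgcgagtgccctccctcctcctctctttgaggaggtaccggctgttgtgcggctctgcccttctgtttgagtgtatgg
Each window held 1 GC box, as did 45% of 35116 listed promoters of that length with at least 1. The CDK19 window also held 3 matches to CCAAT on either strand, found at least once in 34.6% of promoters, and the CDK8 window held none. Neither held TATAAA, found in 11.5%. None of these matches overlapped another. GC content was 54% for the CDK19 window and 67% for the CDK8 window shown. The windows of the other listed CDK19 starts held no CCAAT match, and they held 3 and 1 GC boxes. Tag counts do not tell which start was used, and the matches are descriptions only. The promoter table listed 25 of the 33 members.

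The other paralog pairs of the kinase module were divided in other ways. MED13L was at 45.5, 65.2 and 62.9 CPM in 22Rv1 siCtrl, above the 11.7 to 13.3 CPM of LNCaP and the 15.5 to 20 CPM of PC3. It was 4.56-fold higher in 22Rv1 than in LNCaP (log2 ratio 2.19, SE 0.37, edgeR adjusted p = 1.33e-05) and 3.14-fold lower in PC3 than in 22Rv1 (-1.65, SE 0.33, adjusted p = 9.8e-05). MED13 was near 13.2 to 17.9 CPM on average in the 3 lines. MED13L accordingly held 76.4% ± 0.265 of the counts of MED13 and MED13L in 22Rv1, 50% ± 9.14 in LNCaP and 54.5% ± 7.86 in PC3. MED12L was at 0 in all 6 LNCaP libraries, below the limit that 0 counts allows, at 1 to 4 counts in the 22Rv1 siCtrl libraries and at 0 or 1 count in those of PC3. Its share of the counts of MED12 and MED12L was 13.7% ± 6.51 in 22Rv1 and 3.7% ± 6.41 in PC3. Of the 6 tested kinase module genes 2, 2 and 3 passed the test in 22Rv1 against LNCaP, PC3 against LNCaP and PC3 against 22Rv1. Of all tested genes 43.2%, 54.7% and 54.9% did, so these counts set the module apart in no comparison.

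In the head module, whose subunits contact the polymerase, MED6 was high in PC3 alone among these lines. It was at 42.6, 39.9 and 36.1 CPM in PC3 siCtrl, at 3.9, 5.01 and 5.13 CPM in 22Rv1 and at 0, 5.73 and 9.54 CPM in LNCaP. These are 25 to 38 counts in PC3, 3 to 4 in 22Rv1 and 0 to 9 in LNCaP, and PC3 did not overlap the other lines. Outside PC3 MED6 stayed under 10 counts in every library, so it passed the expression filter only through PC3. Its ratios are thus those of a gene tested because it is high in PC3. PC3 was 6.72-fold above LNCaP (log2 ratio 2.75, SE 0.39, edgeR adjusted p = 4.86e-07) and 8.25-fold above 22Rv1 (3.05, SE 0.42, adjusted p = 2.33e-07). The first became 12-fold (3.58) without LNCaP replicate 3, the library at 9.54 CPM. The siMED12 libraries of PC3 gave 42.2 and 41.5 CPM, and those of 22Rv1 and LNCaP gave 1.4 to 7.42 CPM. MED20 was low in LNCaP alone, at 11 ± 3.37 CPM beside 30.7 ± 1.6 CPM in 22Rv1 and 29.9 ± 3.1 CPM in PC3. Its log2 difference from LNCaP was 1.45 (SE 0.32, edgeR adjusted p = 0.000436) in 22Rv1 and 1.41 (SE 0.32, adjusted p = 0.000358) in PC3. MED11 was 1.73-fold lower in PC3 than in 22Rv1 (-0.79, SE 0.26, adjusted p = 0.0118), a call that DESeq2 did not make (adjusted p = 0.0652). MED8 was at 32.2 to 37.5 CPM and MED19 at 47.3 to 68.3 CPM on average in the 3 lines. MED22 was at 11.7 to 22.1 CPM. MED17, which anchors the head, was at 0 to 4 counts in every siCtrl library, and MED18 at 0 to 8 counts.

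In the middle module, MED10 and MED21, small subunits near its core, were both highest in PC3. MED10 was at 61.9, 59.9 and 72.2 CPM in PC3 siCtrl, against 26.5 to 37.1 CPM in LNCaP and 28.4 to 42.9 CPM in 22Rv1. PC3 stood apart from both, with log2 differences of 0.95 (SE 0.24, edgeR adjusted p = 0.0012) from LNCaP and 0.92 (SE 0.24, adjusted p = 0.00168) from 22Rv1. MED21 was at 51.6, 76.7 and 56.4 CPM in PC3 against 15.6 to 43.5 CPM in 22Rv1, a log2 difference of 1.14 (SE 0.28, adjusted p = 0.00098). MED1, through which nuclear receptors recruit the complex, was at 18.5 ± 7.95 CPM in LNCaP, 15.6 ± 5.72 CPM in 22Rv1 and 9.02 ± 3.53 CPM in PC3. MED4, MED7, MED9 and MED26 averaged 6.23 to 24 CPM across the 3 lines. No middle gene passed between 22Rv1 and LNCaP, 3 of 7 passed between PC3 and LNCaP and 2 of 7 between PC3 and 22Rv1. The shares of all tested genes that passed were 43.2%, 54.7% and 54.9%. MED31 was at 2 to 10 counts in the siCtrl libraries. The scaffold MED14 was at 24.7, 31.8 and 33.4 CPM in 22Rv1 against 11.5 to 17 CPM in LNCaP, 2.09-fold higher (log2 ratio 1.06, SE 0.31, edgeR adjusted p = 0.00591), and was at 17.6 ± 1.56 CPM in PC3.

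In the tail module, the landing site of many activators, all 5 genes were higher in PC3 than in 22Rv1 without overlap of libraries, and 2 of the 5 passed the test, where 58.9% of all genes did not overlap and 54.9% passed. MED24 was at 82.6, 139 and 114 CPM in PC3 siCtrl, at 43.1, 44.4 and 37.1 CPM in LNCaP and at 37.7, 48.5 and 52.6 CPM in 22Rv1. It was 2.74-fold higher in PC3 than in LNCaP (log2 ratio 1.45, SE 0.21, edgeR adjusted p = 8.63e-07) and 2.44-fold higher than in 22Rv1 (1.29, SE 0.21, adjusted p = 5.09e-06). MED25 was at 67.1, 37.8 and 41.9 CPM in PC3, above the 19.1 to 24.9 CPM of LNCaP and the 20.1 to 24.7 CPM of 22Rv1, with log2 differences of 1.11 (SE 0.26, adjusted p = 0.000548) and 1.06 (SE 0.26, adjusted p = 0.000953). Against LNCaP, 22Rv1 was lower in MED16 and MED23. MED16 was at 51.4, 70.2 and 65.7 CPM in LNCaP and 36.4, 33.4 and 37.2 CPM in 22Rv1 (log2 ratio -0.81, SE 0.21, edgeR adjusted p = 0.00203). MED23 was at 28.2, 11.5 and 22.3 CPM in LNCaP and 6.51, 5.01 and 10.3 CPM in 22Rv1 (-1.44, SE 0.41, adjusted p = 0.00513), where the 22Rv1 values rest on 3 to 8 counts. MED15 was at 48 ± 7.17, 33.3 ± 3.62 and 47.5 ± 1.4 CPM in LNCaP, 22Rv1 and PC3.

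Among the head-tail boundary genes MED30 was higher in the other lines than in LNCaP and MED28 was lower in PC3. MED30 was at 9.94, 18.6 and 20.1 CPM in LNCaP siCtrl, 78.1, 48.5 and 68 CPM in 22Rv1 and 89, 101 and 95.4 CPM in PC3. It was 3.88-fold higher in 22Rv1 (log2 ratio 1.95, SE 0.28, edgeR adjusted p = 1.06e-06) and 5.61-fold higher in PC3 (2.49, SE 0.26, adjusted p = 1.17e-09) than in LNCaP. MED28 was at 99.4, 115 and 98.6 CPM in LNCaP and 42.6, 63.1 and 50.6 CPM in PC3, 1.97-fold lower (-0.98, SE 0.19, adjusted p = 5.33e-05). MED27 was 1.69-fold higher in 22Rv1 than in LNCaP (0.76, SE 0.25, adjusted p = 0.0146), and the call was lost with DESeq2 (adjusted p = 0.0521), without LNCaP siCtrl replicate 2 (adjusted p = 0.0586) or without 22Rv1 siCtrl replicate 3 (adjusted p = 0.0724). MED29 was at 50.3 ± 4.92, 33.1 ± 10.5 and 27.4 ± 1.34 CPM in LNCaP, 22Rv1 and PC3.

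The differences were also set beside the position of the genes. Chromosome 17 carries 6 members (MED1, MED9, MED11, MED13, MED24 and MED31), and of these MED24 was higher in PC3 than in 22Rv1, MED11 was lower and MED1, MED9 and MED13 did not pass. Chromosome 6 carries CCNC, CDK19, MED20 and MED23, of which CDK19 and MED23 were lower and MED20 higher in 22Rv1 than in LNCaP. For 5 members (MED11, MED12L, MED16, MED28 and MED31) exons of a gene on the opposite strand lie within 1000 bases of the 3′ end in the annotation. For MED7, MED17, MED20 and MED26 exons are shared with another gene on the same strand, but not within 1000 bases of the 3′ end. Whether counting used strand is not given in the sources used here, so the 5 with opposite-strand exons cannot be told apart from their partners with certainty. For the same-strand genes it is the assignment of shared reads that is not given.

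The silenced gene was then compared between treatments. MED12 lies on chromosome X from 71118543 to 71144103, plus strand. It was at 9.94, 12.9 and 11.7 CPM in LNCaP siCtrl and 6.99, 6.67 and 10.3 CPM in siMED12, which overlapped. In 22Rv1 it was at 23.4, 16.7 and 19.2 CPM in siCtrl and 7.42 and 8.98 CPM in siMED12, both below every control. In PC3 it was at 28.4, 8.41 and 18.8 CPM in siCtrl and 15.8 and 14.5 CPM in siMED12, inside the control range. These levels rest on 5 to 22 counts a library. The log2 ratio was -0.50 (SE 0.46, edgeR adjusted p = 0.878) in LNCaP, -1.28 (SE 0.46, adjusted p = 0.175) in 22Rv1 and -0.22 (SE 0.43, adjusted p = 0.987) in PC3, and none passed the test. The 95% interval ran from -1.45 to 0.45 in LNCaP, from -2.21 to -0.35 in 22Rv1 and from -1.11 to 0.66 in PC3. The 3 effects averaged -0.67 (SE 0.26, 95% interval from -1.2 to -0.14, edgeR adjusted p = 0.423). For this gene alone, the targeted one, the unadjusted edgeR p was 0.289 in LNCaP, 0.00836 in 22Rv1, 0.612 in PC3 and 0.0156 for the mean. The PC3 value turned to 0.25 without PC3 siCtrl replicate 1. A lower MED12 transcript after siMED12 thus did not pass the adjusted threshold in any of the 3 lines at the spheroid endpoint, although both 22Rv1 libraries lay below their controls, and directions below refer to the library labels.

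No other subunit passed the test for siMED12 either. By edgeR, 0 of the 29 tested members were called in each line, against 0.416% of all genes in LNCaP, 1.84% in 22Rv1 and 0% in PC3, and 0 were called for the mean effect, against 0.265%. DESeq2 and limma also called 0. With the replicate number as a block, which pairs the LNCaP libraries, 117 in place of 44 genes were called in LNCaP and still 0 members. An unadjusted p under 0.05 was reached by 1 member in LNCaP, 2 in 22Rv1, 3 in PC3 and 2 in the mean, where 7.34%, 11.7%, 4.99% and 8.52% of all genes reached it. The median log2 ratio of the members was 0.02 in LNCaP, -0.02 in 22Rv1 and -0.05 in PC3, beside -0.004, 0.006 and -0.04 for all genes. It became -0.124 in 22Rv1 without siMED12 replicate 1 and -0.166 without siMED12 replicate 3, and 0.08 in PC3 without siCtrl replicate 1. The siMED12 and siCtrl libraries did not overlap for 2 members in LNCaP, 6 in 22Rv1 and 9 in PC3, where 12.6%, 26.6% and 20.7% of all genes did not overlap. A change larger than 1 on the log2 scale lay outside the 95% interval for 19 members in LNCaP, 18 in 22Rv1 and 18 in PC3, and a change larger than 0.5 lay outside it for 5, 1 and 2. For most subunits a change larger than 0.5 was thus not excluded. Some estimates beyond 1 did not pass either, such as -1.28 for MED12 in 22Rv1 and 1.82 for MED1 and -1.45 for MED7 in PC3.

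**Figure D4:**
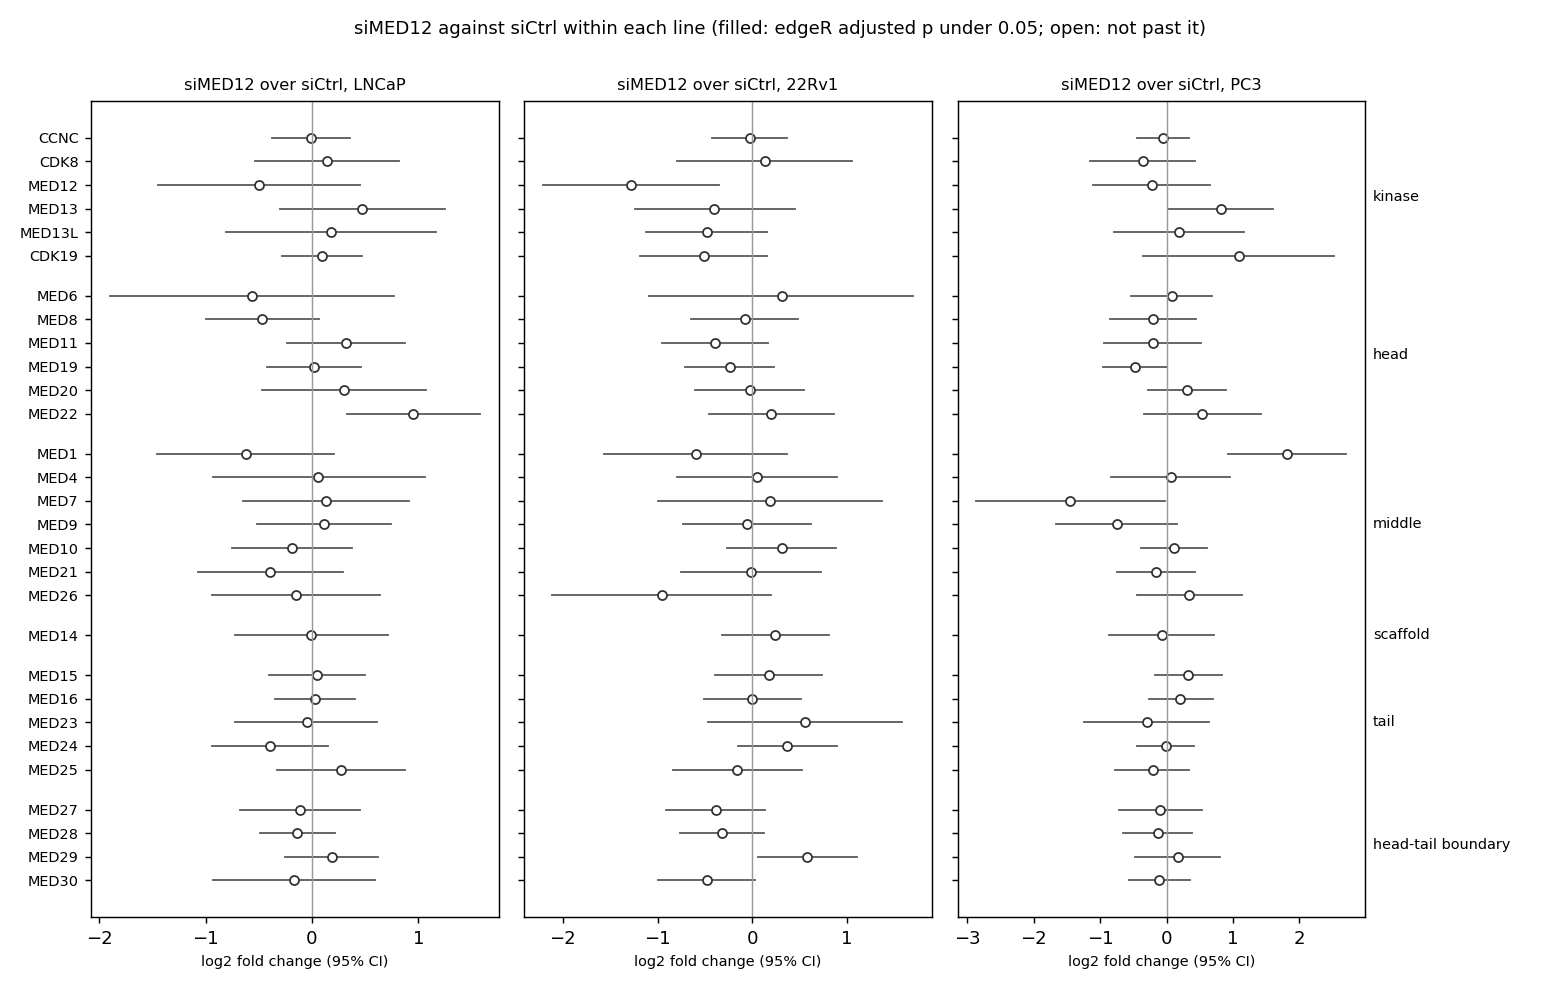
Effect of siMED12 in each line on the 29 tested Mediator genes, as log2 ratio with its 95% confidence interval, grouped by module. Open points did not pass an edgeR adjusted p of 0.05, and none is filled. CCNC has a narrow interval in each line, whereas that of MED12 in 22Rv1, from -2.21 to -0.35, lies below 0.

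The partners of MED12 in the kinase module were measured with different precision, and CCNC was the best measured. LNCaP controls held 96.9 ± 12.4 CPM of it and LNCaP siMED12 libraries 94.5 ± 22.9 CPM (n = 3). The corresponding means were 108 ± 12.2 and 106 ± 11 CPM (n = 2) in 22Rv1, and 134 ± 19.9 and 130 ± 1.41 CPM (n = 2) in PC3. Its 95% intervals lay between -0.44 and 0.37 on the log2 scale in all 3 lines. CDK19, where it was abundant in LNCaP, had a log2 ratio of 0.09 with an interval from -0.28 to 0.47. In 22Rv1 it was -0.51 (SE 0.33, edgeR adjusted p = 0.583) and in PC3, at 1 to 6 counts a library, 1.09 (SE 0.71, adjusted p = 0.975). CDK8 gave 0.14 (SE 0.33), 0.13 (SE 0.45) and -0.36 (SE 0.39) in LNCaP, 22Rv1 and PC3, and the 22Rv1 value turned to -0.58 without siMED12 replicate 3, the library with PC3-restricted genes.

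MED13L in LNCaP rested on a single library. It was at 5.6, 32 and 5.75 CPM in siMED12, against 11.7 to 13.3 CPM in siCtrl, so that its log2 ratio of 0.18 (SE 0.48, edgeR adjusted p = 0.983) became -1.11 without siMED12 replicate 2. In 22Rv1 it was at 39.2 and 43.6 CPM in siMED12, below all 3 controls at 45.5 to 65.2 CPM, with -0.48 (SE 0.31, adjusted p = 0.598). In PC3 it was at 27.7 and 10.4 CPM, on both sides of the controls, with 0.19 (SE 0.48, adjusted p = 0.994), which became -0.80 without siMED12 replicate 1. The MED13 effects were 0.47 (LNCaP, SE 0.38), -0.40 (22Rv1, SE 0.41) and 0.82 (PC3, SE 0.39, adjusted p = 0.974), and the 22Rv1 value became 0.10 without siMED12 replicate 1. In PC3 MED13 was at 30.3 and 20.7 CPM in siMED12 and 14.2, 11.6 and 20.2 CPM in siCtrl, which do not overlap but nearly touch.

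Outside the kinase module the smallest p-values fell on different subunits in each line. In LNCaP it was MED22, of the head, at 22.4, 33.4 and 34.5 CPM in siMED12 and 18.2, 12.9 and 15.9 CPM in siCtrl. Every siMED12 library lay above every control, and the log2 ratio was 0.95 (SE 0.31, edgeR adjusted p = 0.289). MED22 was also the head gene with the smallest p in the mean effect, at 0.57 (SE 0.21, adjusted p = 0.381), where MED7 (-0.38), MED29 (0.31), MED15 (0.19) and MED14 (0.05) had the smallest p of their modules and did not pass. MED22 gave 0.20 (SE 0.32) in 22Rv1, where siMED12 overlapped the controls, and 0.54 (SE 0.43) in PC3, where it did not. The other modules gave MED1 at -0.62 (SE 0.41, adjusted p = 0.799), MED24 at -0.39 (SE 0.27, adjusted p = 0.807), MED29 at 0.19 (SE 0.21, adjusted p = 0.899) and the scaffold MED14 at -0.01 (SE 0.35) in LNCaP. In 22Rv1 MED29 was at 61.5 and 38.5 CPM in siMED12 and 35.1, 21.7 and 42.3 CPM in siCtrl, with a log2 ratio of 0.58 (SE 0.26, adjusted p = 0.339) and overlapping libraries. MED26, through which elongation factors are recruited, was at 7 and 2 counts in siMED12 and 6, 7 and 9 counts in siCtrl of 22Rv1 (-0.95, SE 0.56, adjusted p = 0.544). MED24 (0.37, SE 0.25), MED11 (-0.39, SE 0.27) and MED14 (0.24, SE 0.28) were closer to 0 in 22Rv1.

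In PC3 MED1 had the smallest p of all members in any line. It was at 39.6 and 18.7 CPM (30 and 9 counts) in siMED12 and at 7.74, 6.31 and 13 CPM (6, 6 and 9 counts) in siCtrl. Both siMED12 libraries lay above the controls, most of all replicate 1. The log2 ratio was 1.82 (SE 0.44), which did not pass (edgeR adjusted p = 0.825). It passed when the expression filter was left out (1.83, adjusted p = 0.0432) and fell to 1.09 without siMED12 replicate 1. In LNCaP and 22Rv1 MED1 went the other way, at -0.62 and -0.59 (SE 0.47), and the effect in PC3 minus that in LNCaP was 2.44 (SE 0.60, adjusted p = 0.459). PC3 minus 22Rv1 gave 2.41 (SE 0.64, adjusted p = 0.133). Differences between lines in the siMED12 effect called 0 members in each of 3 comparisons, against 0.189% of all genes for 22Rv1 minus LNCaP, 0.0284% for PC3 minus LNCaP and 0.0946% for PC3 minus 22Rv1. By unadjusted p under 0.05 they held 1, 1 and 3 members, where 8.28%, 5.02% and 9.16% of all genes lay under it, and DESeq2 and limma called 0. MED7 in PC3 was at 2 counts in each siMED12 library and at 6, 8 and 8 counts in siCtrl, which did not pass the test (-1.45, SE 0.70, adjusted p = 0.974). MED19 (-0.48, SE 0.24), MED15 (0.33, SE 0.25), MED28 (-0.13, SE 0.25) and MED14 (-0.07, SE 0.38) had the smallest p of their modules in PC3, all with an adjusted p of at least 0.974.

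**Figure D5:**
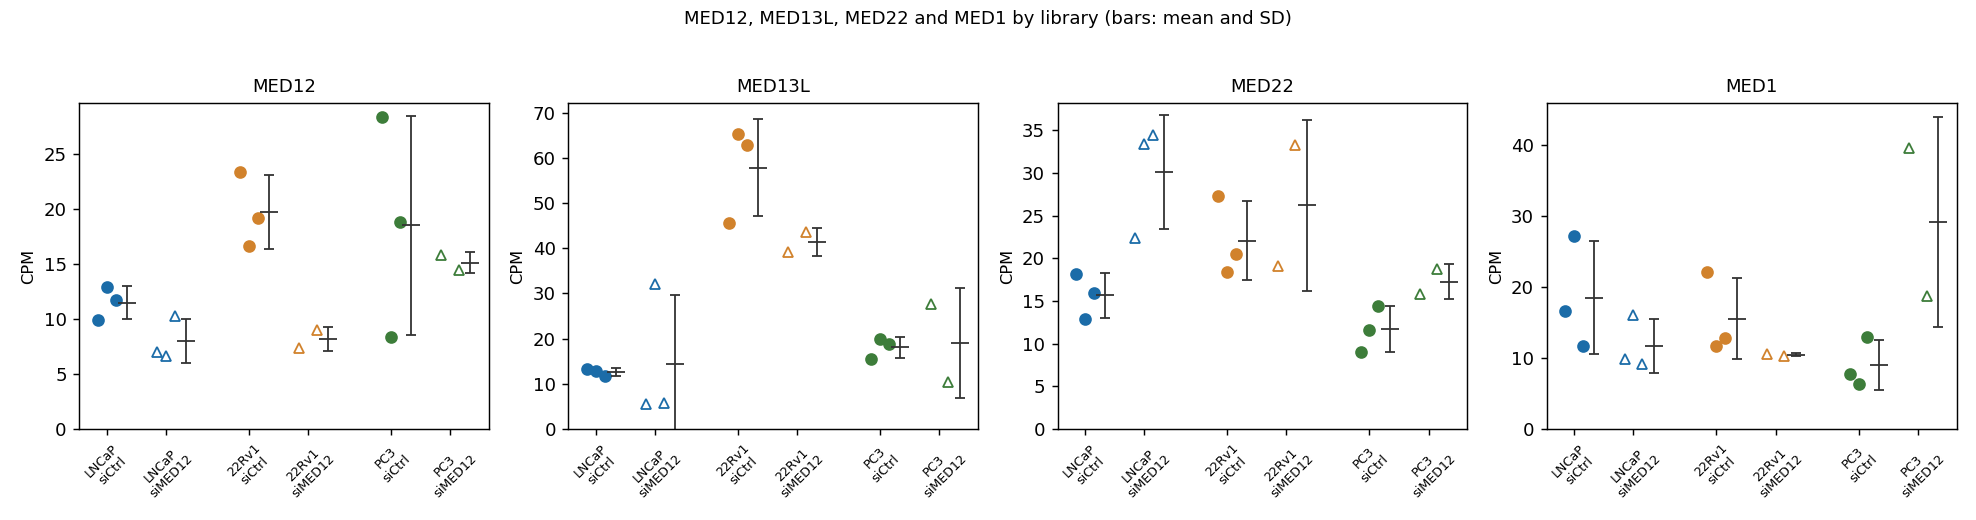
CPM of MED12, MED13L, MED22 and MED1 in each library, by line and treatment, with filled circles for siCtrl, open triangles for siMED12 and bars for mean and SD (n = 3, or n = 2 for siMED12 in 22Rv1 and PC3). The axes start at 0, which cuts the lower bar of MED13L in LNCaP siMED12. MED12 is clear of its controls only in 22Rv1, and MED1 in PC3 is raised mainly by the library at 39.6 CPM.

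Genes that work with Mediator were set beside it from a list of 18, covering cohesin and its loader, the kinase of TFIIH, the elongation kinase and its partners, the acetyltransferases EP300 and CREBBP, and FBXW7, which targets MED13 for degradation. With siMED12, 1 of the 18 passed in 22Rv1, against 1.84% of all genes, and 0 in LNCaP, in PC3 and in the mean effect. An unadjusted p under 0.05 was reached there by 1, 2 and 2 of them, and by 7.34%, 4.99% and 8.52% of all genes. The gene was CCNH, the cyclin of the TFIIH kinase. It was at 72.1 and 73.1 CPM in siMED12 and at 137, 127 and 133 CPM in siCtrl of 22Rv1, well apart. The log2 ratio was -0.87 (SE 0.19, edgeR adjusted p = 0.00816), and it did not pass without siMED12 replicate 1 (adjusted p = 0.127) or without siMED12 replicate 3 (adjusted p = 0.0686), although its size hardly moved. In LNCaP CCNH was at 98.9 to 119 CPM in siMED12 and 111 to 123 CPM in siCtrl, which overlapped. In PC3 it was at 35.6 and 56 CPM in siMED12 and 38.7, 26.3 and 39 CPM in siCtrl (0.37, SE 0.27, adjusted p = 0.975), also overlapping. The difference of the effect in PC3 minus 22Rv1 was 1.24 (SE 0.33) and that in 22Rv1 minus LNCaP -0.77 (SE 0.25), and neither passed (edgeR adjusted p = 0.133 and 0.318). Between siCtrl lines 5 of the 18 passed in 22Rv1 against LNCaP, 4 in PC3 against LNCaP and 10 in PC3 against 22Rv1, against 43.2%, 54.7% and 54.9% of all genes.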

How the data were processed

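The 16 libraries were grouped by line and treatment from their labels. Per the labels and the study's methods, the authors prepared them by BRB-seq, which reads the 3′ ends of polyadenylated transcripts, and counted them with STARsolo on GRCh38.p13. Whether molecular identifiers were collapsed, how shared reads were assigned and whether counting used strand are not given in the sources used here. The deposited count table holds raw counts, and the deposited expression table holds log2 CPM made by the authors from those counts, used here only for the limma alternative.

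In edgeR 4.0.16 (R 4.3.3), genes passing its expression filter (count at least 10, total at least 15) were scaled by TMM and fitted together, with a mean for each of 6 groups, and contrasts were tested by quasi-likelihood F tests. Their 2-sided p-values were Benjamini-Hochberg adjusted over 10566 genes, and an adjusted p under 0.05 was called. CPM values are TMM-scaled, ± is the SD, and the SE is the log2 ratio divided by the square root of its F statistic. The script was tested on simulated counts. Members, modules and lists were chosen with earlier results of these data known. In each siMED12 comparison every tested kinase module gene and the gene with the smallest p of each other module were named, in each line comparison up to 8 called members, and from the partner list the genes called for siMED12. Others are given as levels or ranges. A gene of the marker list and a gene of the partner list are not reported here. Alternatives were RLE scaling, no filter, DESeq2 1.42.0, limma 3.58.1, a replicate block, leaving out each library and, added after seeing the data, the legacy edgeR test and leaving out both siMED12 replicates 3 of 22Rv1 and PC3. Deviations from the group means of same-numbered LNCaP libraries correlated at 0.13 to 0.18 over 6720 genes, above 0.1 for all 3 pairs. The numbers were therefore taken to pair the LNCaP libraries. In 22Rv1 such correlations were 0.19 and 0.25, also above 0.1, and in PC3 0.12 and 0.08. In these lines the deviations of siMED12 replicates 1 and 3 mirror each other, so the correlations of a line are not separate evidence. Unless a replicate block is named, all ratios, SEs and p-values, those of 22Rv1 included, come from fits that leave the replicate numbers out. The variance between replicates was 1.6 to 3.43 times that of sampling, so no library was a copy. Coordinates are those of Gencode release 44, matched by symbol for 33 of 33 members, and promoter sequences are those of RefSeq.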

Additional observations from a re-analysis of the deposited data

How the results depend on the processing

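The count of members called for siMED12 was 0 in each line under RLE scaling, DESeq2, limma, the legacy edgeR test, the replicate block and each left-out library. Without the expression filter it was 1, MED1, in PC3, in PC3 minus 22Rv1 and in PC3 minus LNCaP. Between siCtrl lines DESeq2 called 7 in place of 13 members in PC3 against 22Rv1, and the causes of these shifts were not tested. Of the 9, 14 and 13 members called in 22Rv1 against LNCaP, PC3 against LNCaP and PC3 against 22Rv1, 7, 10 and 7 were called in all alternatives run. The replicate block within line left 0 members called and moved the genes called at large from 44 to 117 in LNCaP, from 194 to 312 in 22Rv1 and from 0 to 20 in PC3, where only replicates 1 and 3 share a number (correlations of deviations of 0.19 and 0.25 in 22Rv1 and 0.12 and 0.08 in PC3).

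Several effects changed sign, and not all of them were near 0. MED13 in 22Rv1 was -0.4 in the main fit, and MED13L in LNCaP moved from 0.18 to -1.11 without siMED12 replicate 2. CCNC became 0.014 without the filter and 0.063 with the replicate block in 22Rv1, and 0.059 with the block in PC3. MED28 in PC3 became 0.046 with the block and 0.03 without both replicates 3, which also gave -0.58 for CDK8 in 22Rv1 and 0.15 for MED14 in PC3. With limma MED13L became -0.19 in LNCaP and -0.054 in PC3. MED14 in LNCaP became 0.0018 with the legacy test, 0.016 with DESeq2 and 0.0097 with limma. With single libraries left out, the log2 effect of siMED12 ran from -0.24 to 0.11 for CCNC in LNCaP, -0.13 to 0.07 in 22Rv1 and -0.16 to 0.045 in PC3. It ran from -0.12 to 0.29 for CDK8 in LNCaP and -0.58 to 0.66 in 22Rv1, from -0.63 to 0.25 for MED12 in PC3, from -1.05 to 0.1 for MED13 in 22Rv1, from -1.11 to 0.61 for MED13L in LNCaP and -0.8 to 0.61 in PC3. For MED14 it ran from -0.32 to 0.21 in LNCaP, -0.51 to 0.16 in PC3 and -0.089 to 0.13 in the mean, and for MED28 in PC3 from -0.42 to 0.05. The median of the members in 22Rv1 became -0.163 without both replicates 3.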
